A study of Mus musculus with 8 samples.

Results

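Interferon-stimulated genes, the genes that cells switch on when an interferon binds its receptor, were followed across 8 RNA sequencing libraries of mouse astrocytes. The set is a list of 41 gene symbols, of which 40 matched a row of the deposited expression table by symbol, out of 23401 genes in that table, and the symbol Ifi27 matched no row and was not analysed here. All 40 reached the level needed for testing, at least 1 TPM (transcript abundance corrected for length, on a scale with the same total in every library) in at least 2 of the 8 libraries, as did 14904 genes in all. Astrocytes were kept either in conventional culture (CV) or in a culture named MGS, letters that the labels do not explain. MGS libraries carry the word soft in their sample descriptions and CV libraries the word hard. There were 2 libraries of each culture at day 5 and 2 at day 32, which gives 4 groups, and no other treatment is named for any of them. The labels give the cells as mouse astrocytes. No source used here gives the strain, sex or age of the donors, or the number of cultures or animals behind a library, so the p-values below rest on the spread between libraries alone, and that spread may be technical. The comparisons set MGS against CV at each day and the days against each other within a culture.

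Type I interferons bind the receptor made of Ifnar1 and Ifnar2. The kinases Jak1 and Tyk2 then act on transcription factors such as Stat2, which joins Irf9 in a complex that binds the interferon-stimulated response element (ISRE) in the promoters of its target genes. Interferon gamma acts through another receptor, and its target genes carry the gamma-activated site (GAS). The genes that answer encode sensors of foreign nucleic acid, proteins that block viral translation, entry or release, GTPases that attack intracellular pathogens, and enzymes of the ubiquitin-like ISG15 system. In the brain astrocytes and microglia both express such genes, and microglia are known as strong responders.

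The promoters of 8 of these genes are shown because they hold or lack the core of the ISRE and because their genes stand for the patterns described below. Each stretch covers positions -160 to -1 before the transcription start, written 5′ to 3′ on the strand of the gene, from the RefSeq promoter table of build GRCm38.p6. Capitals mark every match to the ISRE core, which was searched on both strands as GAAA, any 2 bases and GAAA again. A match on the opposite strand therefore begins and ends in TTTC.
Isg15, chr4:156200819-156200978, minus strand: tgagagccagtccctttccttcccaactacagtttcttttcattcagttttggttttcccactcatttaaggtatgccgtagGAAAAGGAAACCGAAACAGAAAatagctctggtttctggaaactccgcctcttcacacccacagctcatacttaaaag
Ifit1, chr19:34640729-34640888, plus strand: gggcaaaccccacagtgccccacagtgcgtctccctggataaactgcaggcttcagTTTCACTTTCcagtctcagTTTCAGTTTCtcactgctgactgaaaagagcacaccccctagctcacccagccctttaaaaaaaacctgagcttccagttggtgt
Ifit3, chr19:34583369-34583528, plus strand: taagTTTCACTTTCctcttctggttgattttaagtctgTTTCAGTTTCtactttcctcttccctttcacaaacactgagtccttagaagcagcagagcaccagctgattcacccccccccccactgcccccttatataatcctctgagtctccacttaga
Ifit2, chr19:34550534-34550693, plus strand: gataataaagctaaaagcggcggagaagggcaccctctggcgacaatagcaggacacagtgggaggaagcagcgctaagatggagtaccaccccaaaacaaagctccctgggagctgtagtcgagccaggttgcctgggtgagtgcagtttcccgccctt
Gbp2, chr3:142620503-142620662, plus strand: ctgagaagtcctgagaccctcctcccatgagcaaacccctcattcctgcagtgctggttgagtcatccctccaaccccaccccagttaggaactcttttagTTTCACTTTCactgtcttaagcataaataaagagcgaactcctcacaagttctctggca
Gbp7, chr3:142530176-142530335, plus strand: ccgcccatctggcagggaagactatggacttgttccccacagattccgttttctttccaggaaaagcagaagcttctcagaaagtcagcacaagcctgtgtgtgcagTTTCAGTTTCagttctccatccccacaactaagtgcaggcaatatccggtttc
Bst2, chr8:71537473-71537632, minus strand: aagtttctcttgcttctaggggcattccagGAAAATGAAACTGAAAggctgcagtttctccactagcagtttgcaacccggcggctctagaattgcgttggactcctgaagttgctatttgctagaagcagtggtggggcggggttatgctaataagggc
Rsad2, chr12:26456453-26456612, minus strand: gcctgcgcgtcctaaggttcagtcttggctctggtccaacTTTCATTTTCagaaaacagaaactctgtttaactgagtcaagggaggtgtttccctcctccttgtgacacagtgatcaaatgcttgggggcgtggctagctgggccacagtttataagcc
In Isg15 the capitals join 3 matches that overlap each other, and in Bst2 they join 2. Ifit1 and Ifit3 each held 2 separate matches on the opposite strand. The Ifit2 stretch held no match, which says only that these letters are not in it.

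Entries of the promoter table were used for 30 of the 40 genes, and none was used for Zbp1, Oas2, Mx1, Mx2, Iigp1, Usp18, Parp9, Parp14, Rtp4 and Ifi27l2a. Iigp1 was left out by a rule that used no gene of the set on chromosome 18. In the window from 250 bases before to 50 bases after the start, 16 of the 30 (53.33%) held the ISRE core on either strand, against 3.99% of the 27025 genes in the table and 3.44% of its 32851 windows. Matches may overlap each other. With only the bases before the start, the share was 12 of 30 (40%) against 3.46% of the genes. The GAS letters TTCNNNGAA were found in 8 of the 30 (26.67%), against 9.55% of the genes, among them Irf1, Gbp7, Bst2 and Ifit2. Genes with and without the ISRE core had the same median culture difference at day 5, a log2 fold change of 1.34 for the 16 and 1.34 for the 14. At day 32 these medians were 0.56 and 0.69. A match describes the letters and is not a measured binding site.

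The MGS libraries held 3.90 to 4.69 gigabases of aligned sequence and the CV libraries 2.15 to 2.99 gigabases. In a library 13858 to 14441 genes reached 1 TPM in MGS and 12912 to 13356 in CV. Depth and culture thus cannot be told apart, which bears on values near 0 in CV. The 10 astrocyte markers were all at or above 1 TPM in every library, with a summed level of 17043 and 17232 TPM in MGS and 3508 and 3699 TPM in CV at day 5. At day 32 they summed to 14009 and 13999 TPM in MGS and to 1474 and 1892 TPM in CV. Gfap alone gave 13723 and 13744 TPM in MGS and 1657 and 1540 TPM in CV at day 5. At day 32 Gfap gave 9571 and 9605 TPM in MGS and 696 and 812 TPM in CV. Aldh1l1 was lower in MGS at both days (means of 254 against 410 TPM and 162 against 248 TPM). Of the 10, 6 were called higher in MGS at day 5 and 9 at day 32. The 18 microglia and macrophage markers summed to 1328 and 1353 TPM in MGS and 149 and 165 TPM in CV at day 5. At day 32 they summed to 1694 and 1672 TPM in MGS and to 18335 and 19557 TPM in CV, so these labelled astrocyte cultures also carried macrophage transcripts, most of all CV at day 32. Lyz2 alone gave 9452 and 11181 TPM of the CV sums at day 32. Only Aif1 in replicate 2 of CV at day 5 was at 0 among the 18 macrophage markers.

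The level of the 40 genes followed a simple order for most of them. In 35 of the 40 the lowest group was CV at day 5, and for 34 of these its 2 libraries lay below all 6 others. Of all genes tested 21.6% were lowest in that group and 13.9% had both of its libraries below all others. MGS at day 32 was the highest group for 28 genes, with both libraries above all others for 24, where 46.5% and 36.5% of all genes did the same. CV at day 32 was highest for 10, with separated libraries for 8 of them (Oas1a, Oas3, Bst2, Ifitm3, Rtp4, Ifi27l2a, Ifi35 and Xaf1), against 15% and 9.55% of all genes. Oas3 reached the level needed for testing only through CV at day 32, and Oasl1 only through MGS at day 32. Their places in this order thus follow in part from the filter. Irf1 and Zbp1 were highest in MGS at day 5. After median-of-ratios scaling, which sets the typical gene equal between libraries, CV at day 5 was lowest for 36 genes (27.1% of all genes), whereas MGS at day 32 was highest for 18 (26.7%) and CV at day 32 for 19 (31%). The low end of the order was thus nearly the same under both scalings, and the high end was not. The median of the 40 genes was 10.8 and 13.0 TPM in MGS and 2.27 and 2.91 TPM in CV at day 5, and 29.6 and 29.5 TPM in MGS and 15.5 and 21.7 TPM in CV at day 32.

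**Figure D1:**
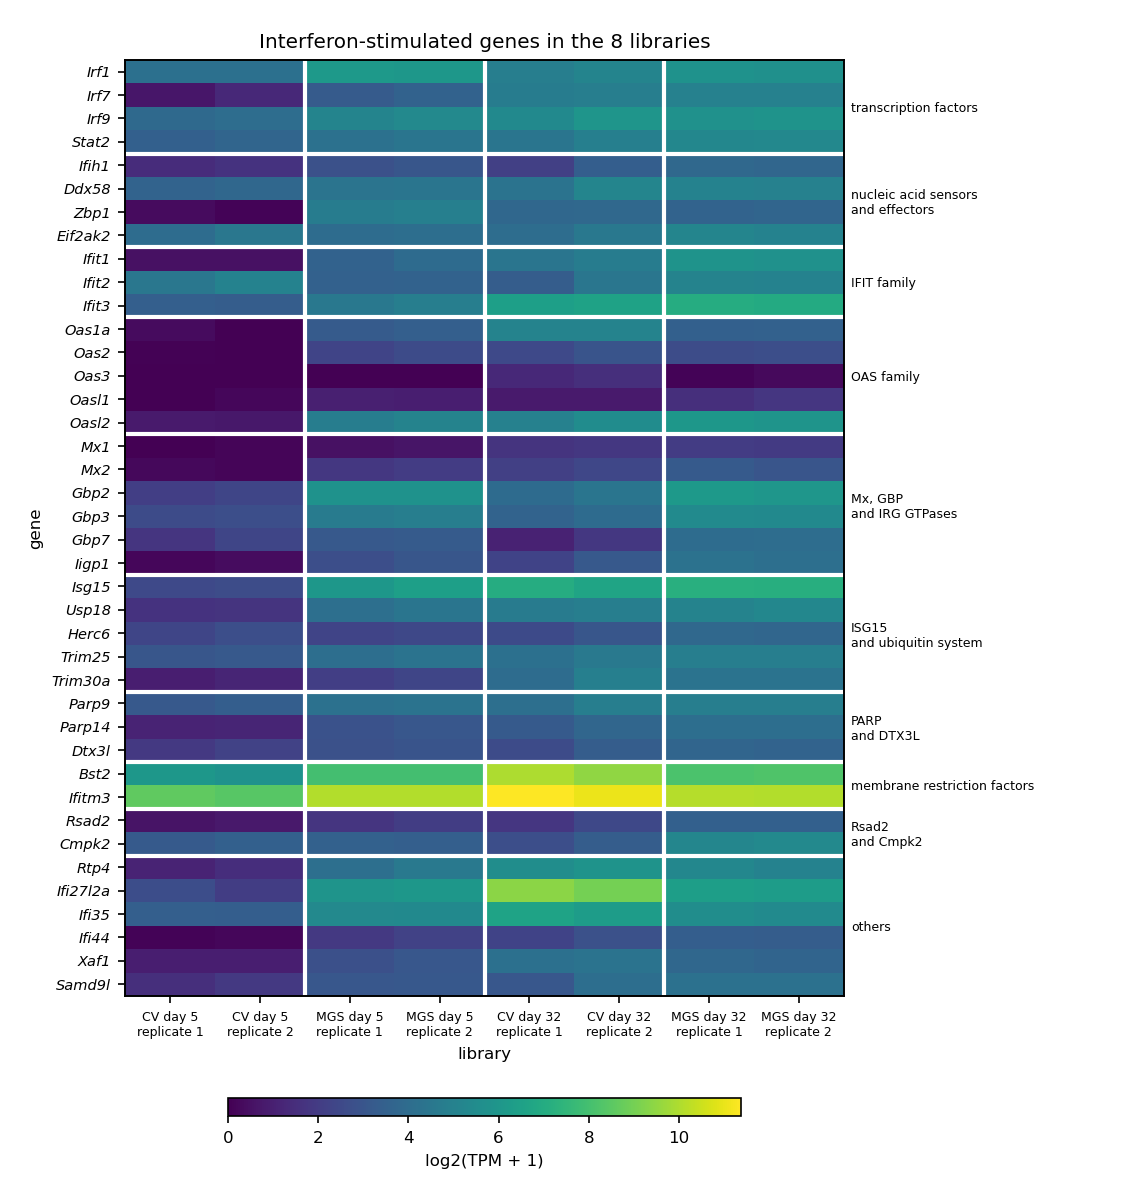
Level of 40 interferon-stimulated genes (rows, grouped by role) in the 8 libraries (columns), as log2(TPM + 1) in colour. The CV day 5 columns are the darkest for 35 of the 40 genes, and Ifitm3 and Bst2 are the most abundant genes of the set in each library.

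At day 5, 34 of the 40 genes were called higher in MGS than in CV and 1 was called lower, by limma on log2(TPM + 1) at a Benjamini-Hochberg adjusted p under 0.05 over all genes tested. Of all 14904 genes 22.5% were called higher and 26.4% lower. The median log2 fold change of the 40 genes was 1.63 against -0.14 for all genes tested, on a scale that understates the change of low genes. In bulk RNA a difference of this kind cannot tell fewer or more cells of a type from less or more RNA per cell. The largest differences belonged to Zbp1, Oasl2, Isg15, Ifi27l2a and Gbp2. Ifit2 was the gene called lower, a count of 1 that became 0 without CV day 5 replicate 2 or either MGS library of day 5, and Ddx58, Eif2ak2, Oas3, Herc6 and Cmpk2 were not called. Under each of 5 scalings of the values 32 genes were called higher and Ifit2 lower. The share of all genes called alike under all 5 scalings was not computed, here or for the later counts of this kind. Single scalings called 22.5% to 28.6% of all genes higher at day 5 and 24% to 39% lower. Markers of other cell types were also called higher in MGS at day 5, namely 16 of 18 for microglia and macrophages. So were 8 of 8 each for meningeal fibroblasts, oligodendrocytes and ependyma with choroid plexus, 5 of 8 for endothelium (1 was called lower) and 4 of 5 for mural cells. Opalin, Cldn5 and Pecam1 among them reached 1 TPM only in MGS at day 5, and some others, such as Mog and Tmem212, only in MGS libraries. The calls of such markers follow in part from the filter. Of the 6 neuron markers tested 3 were called higher and 2 lower. The part of any of these cells in the result was not tested.

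At day 32 the set divided. In MGS 20 of the 40 genes were called higher (50%) and 7 lower (17.5%), where 52.8% of all genes were called higher and 14.8% lower (67.6% in either direction), so the shares of the set lay near the background. Their median log2 fold change was 0.56, as for all genes tested (0.56). The split depended on the scaling. It was 9 higher and 12 lower after median-of-ratios scaling (35.1% and 34.9% of all genes) and 8 and 13 after quantile normalization (32% and 35.9%). With FPKM it was 14 and 10 (41.7% and 26.4%). Once trends with the length and GC content of transcripts were removed (the length and GC correction), it was 13 and 18 (30.7% and 39.4%). The median of all genes moved from 0.56 to between -0.08 and 0.19. Without MGS day 32 replicate 1 or replicate 2 the count of genes called higher was 10. Single scalings called 30.7% to 52.8% of all genes higher and 14.8% to 39.4% lower, so the counts under all 5 scalings are not shown to exceed the background. Under all 5 scalings 7 genes were called higher (Ifit1, Gbp2, Gbp3, Gbp7, Iigp1, Rsad2 and Cmpk2). Called lower under all 5 were Oas1a, Bst2, Ifitm3, Ifi27l2a, Ifi35 and Xaf1. Oas3 had the same calls but is set aside for the reason given next. Oas3 entered the test only through CV at day 32 and Oasl1 only through MGS at day 32, the groups in which they were high, so their calls follow in part from the filter. Without these 2 genes 19 were called higher and 6 lower at day 32, and 33 higher and 1 lower at day 5. With time 33 of the other 38 then rose in CV and 25 in MGS, and 23 had a lower interaction. Parp14 and Dtx3l were called in either direction depending on the scaling.

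**Figure D2:**
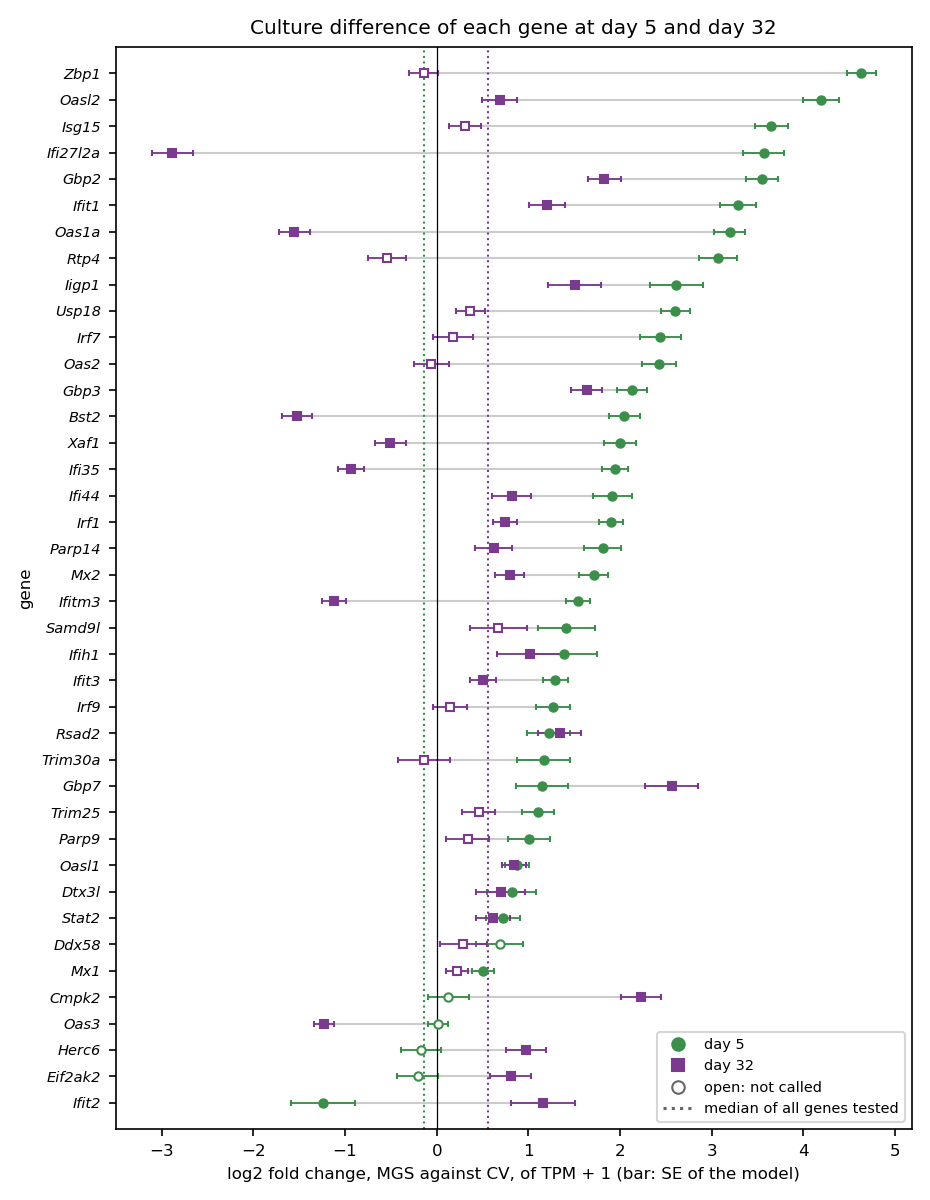
Log2 fold change of MGS against CV (x axis, on TPM + 1) for each of the 40 genes (y axis, ordered by day 5), with circles for day 5, squares for day 32, bars for the SE of the model and open symbols for genes not called. The dotted lines are the medians of all genes tested (-0.14 and 0.56), and nearly all day 5 symbols lie right of theirs, whereas the day 32 symbols spread to both sides.

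**Figure D3:**
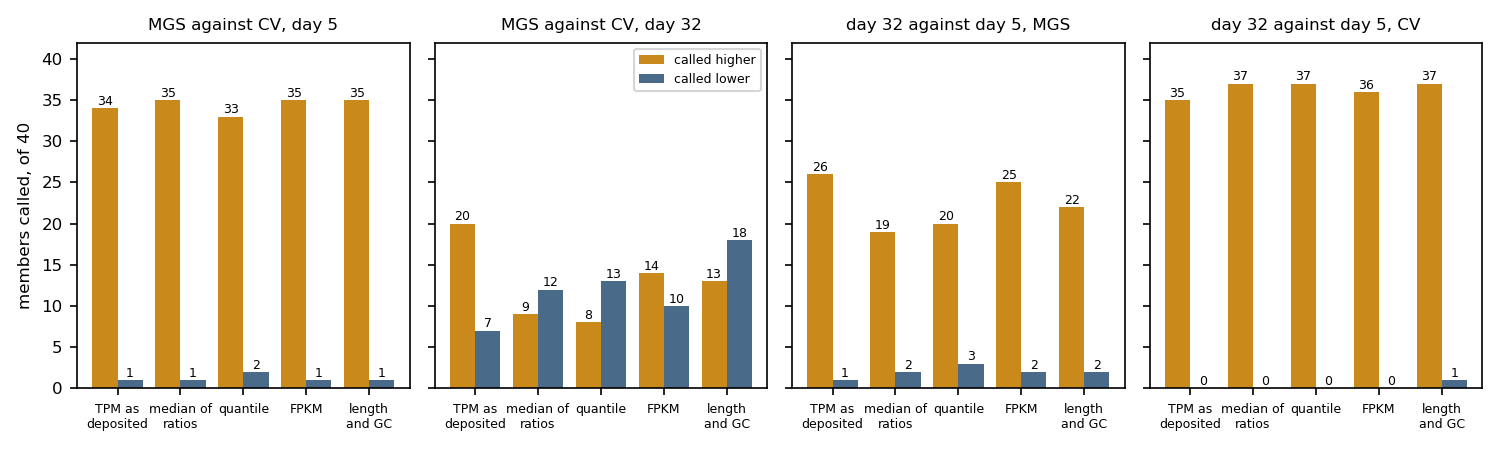
Number of the 40 genes called higher (ochre) and lower (blue) in each comparison (panels) under 5 scalings of the values (x axis). At day 5 the counts stay at 33 to 35 higher and 1 or 2 lower, and at day 32 the higher count runs from 8 to 20 and the lower from 7 to 18.

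On the deposited TPM scale both days together gave these patterns. Called higher in MGS at both days were 16 genes (15.6% of all genes tested), among them Irf1, Ifit1, Gbp2, Gbp3, Gbp7, Iigp1 and Rsad2. The 16 include Oasl1, which passed the filter only through MGS at day 32. Another 12 were called higher at day 5 and not called at day 32 (3.82% of all genes), including Isg15, Usp18, Zbp1, Irf7 and Irf9. Called higher at day 5 and lower at day 32 were 6 genes (3.03% of all genes), namely Oas1a, Bst2, Ifitm3, Ifi27l2a, Ifi35 and Xaf1, and all 5 scalings gave these calls at day 32. Ifit2 alone was called lower at day 5 and higher at day 32, as were 9.31% of all genes. The change of the culture difference between the days was itself tested as an interaction, in which 24 genes were called lower at day 32 and 5 higher, against 12.3% and 49.7% of all genes (62.0% in either direction). The median interaction of the 40 genes was -1.11 on the log2 scale and that of all genes 0.65, which other scalings moved to between -0.07 and 0.17. The split was 33 lower and 2 higher with median-of-ratios scaling, where 31.6% and 28.7% of all genes were called. It was 34 and 2 with the length and GC correction (25.8% and 32.1% of all genes). Among these calls, 24 were lower and 2 (Ifit2 and Cmpk2) higher under all 5 scalings. Single scalings called 12.3% to 31.6% of all genes lower and 28.7% to 49.7% higher. The 24 include Oas3, which passed the filter only through CV at day 32. The count of 5 was 2 without MGS day 5 replicate 1, without CV day 5 replicate 2 or without MGS day 32 replicate 1, and 3 without MGS day 5 replicate 2 or without MGS day 32 replicate 2.

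Change with time was tested within each culture. In CV, 35 of the 40 genes rose from day 5 to day 32 and 0 fell (of all genes 16.0% rose and 37.7% fell, 53.7% together), with a median log2 fold change of 2.03 against -0.31 for all genes. These 35 were called higher under each of the 5 scalings, where single scalings called 16.0% to 27.3% of all genes higher. The 35 include Oas3 and Oasl1, whose calls follow in part from the filter. Without CV day 32 replicate 2, 3 genes (Ifit2, Gbp7 and Cmpk2) were called lower in CV. In MGS, 26 of the 40 rose and 1 fell (35.0% and 7.53% of all genes, 42.5% together), with a median of 0.84 against 0.36, the latter moving to between -0.04 and 0.12 under other scalings. The MGS count was 11 without MGS day 5 replicate 1, 12 without MGS day 32 replicate 1 and 11 without MGS day 32 replicate 2, and the count of genes that fell was 2 without CV day 32 replicate 1 or 2. The split was 19 higher and 2 lower after median-of-ratios scaling (22.8% and 22.7% of all genes). Under all 5 scalings 16 genes were called higher in MGS with time and Zbp1 lower. Single scalings called 22% to 35.0% of all genes higher there and 7.53% to 25.9% lower. The culture comparisons and the time comparisons use the same libraries, so their counts are not independent of one another.

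With time, 22 genes rose in both cultures, against 5.72% of all genes. The 22 include Oasl1, which passed the filter only through MGS at day 32. The 4 genes that rose in MGS and were not called in CV were Eif2ak2, Ifit2, Herc6 and Cmpk2 (14.4% of all genes). In CV 12 genes rose that were not called in MGS (8.47% of all genes), including Irf1, Oas1a, Bst2, Ifitm3, Ifi27l2a, Ifi35 and Gbp2. The 12 also hold Oas3, which passed the filter only through CV at day 32. Zbp1 rose in CV (3.61 ± 0.16, adjusted p = 3.76e-06) and fell in MGS (-1.17 ± 0.16 (adjusted p = 0.00155)), as 1.78% of all genes did. Gbp7 was called in neither culture, as were 29.1% of all genes.

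The transcription factors of the response came first in the order of roles. Irf7, which amplifies the interferon response, was at 8.73 and 11.03 TPM in MGS and 0.627 and 1.45 TPM in CV at day 5, and 31.1 and 30.6 TPM in MGS and 26.4 and 27.9 TPM in CV at day 32. It was lowest in CV at day 5, and the 2 cultures lay close at day 32 without overlapping. Its log2 fold change of MGS against CV, given with the SE of the model here and below, was 2.44 ± 0.22 (adjusted p = 0.000103) at day 5 and 0.18 ± 0.22 (adjusted p = 0.493) at day 32, where the sign depended on the scaling (-0.44 to 0.18). Irf7 rose with time by 1.56 ± 0.22 (adjusted p = 0.00187) in MGS and by 3.82 ± 0.22 (adjusted p = 1.48e-05) in CV. Irf1, a factor induced strongly by interferon gamma, was at 68.98 and 64.9 TPM in MGS and 17.1 and 17.3 TPM in CV at day 5, and 54.3 and 51.95 TPM in MGS and 28.3 and 34.6 TPM in CV at day 32. MGS at day 5 was its highest group and no groups overlapped. Irf1 was higher in MGS at day 5 (1.90 ± 0.13, adjusted p = 2.7e-05) and at day 32 (0.74 ± 0.13, adjusted p = 0.00192), a call that median-of-ratios scaling ended (log2 fold change 0.13, adjusted p = 0.283). With time it rose in CV (0.83 ± 0.13, adjusted p = 0.002), not called with only the compared groups fitted (0.054). In MGS it had -0.33 ± 0.13 (adjusted p = 0.0784), called lower without CV day 32 replicate 1 or 2 (adjusted p = 0.00838 and 0.00814) and under the other 4 scalings.

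Irf9 and Stat2 belong to the complex that binds the ISRE. Irf9 was at 34.3 and 39.7 TPM in MGS and 13.8 and 15.7 TPM in CV at day 5, and 53.5 and 56.2 TPM in MGS and 41.2 and 59.4 TPM in CV at day 32. CV at day 5 was lowest, and the cultures overlapped at day 32. Its difference was 1.27 ± 0.19 (adjusted p = 0.00117) at day 5 and 0.15 ± 0.19 (adjusted p = 0.505) at day 32, with -0.55 to 0.15 across scalings. Irf9 was called lower in MGS at day 32 after median-of-ratios scaling (-0.476, adjusted p = 0.00547) and with the length and GC correction (log2 fold change -0.547, adjusted p = 0.00106), and higher without CV day 32 replicate 2 (0.405, adjusted p = 0.0227). Stat2 was at 18.1 and 20.1 TPM in MGS and 10.2 and 12.2 TPM in CV at day 5, and 37.7 and 38.2 TPM in MGS and 20.6 and 28.9 TPM in CV at day 32. Every group lay apart from the next, in the order CV day 5, MGS day 5, CV day 32 and MGS day 32. Stat2 was higher in MGS at day 5 (0.72 ± 0.19, adjusted p = 0.0158), a call lost without MGS replicate 1 of day 5 (0.063), MGS replicate 2 of day 5 (0.11) or CV replicate 1 of day 5 (0.0797), with the adjusted p after leaving out that library in parentheses here and below. At day 32 it had 0.62 ± 0.19 (adjusted p = 0.021), a call lost without MGS replicate 1 or 2 of day 32. It was also lost in each other scaling (-0.18 to 0.62 over all 5 scalings). With time Stat2 rose by 1.06 ± 0.19 (adjusted p = 0.0031) in CV, not called with only the compared groups fitted (0.0542), and by 0.96 ± 0.19 (adjusted p = 0.00691) in MGS, the latter not called without MGS replicate 1 of day 5 (0.0658), MGS replicate 1 of day 32 (0.0568) or MGS replicate 2 of day 32 (0.061). The rise of Irf9 in MGS (0.56 ± 0.19, adjusted p = 0.0461) was lost without MGS replicate 1 of day 5 (0.237), MGS replicate 2 of day 5 (0.111), CV replicate 1 of day 5 (0.0637), CV replicate 2 of day 5 (0.0634), MGS replicate 1 of day 32 (0.154) or MGS replicate 2 of day 32 (0.193) and under the other 4 scalings, and its rise in CV was 1.68 ± 0.19 (adjusted p = 0.000376). The interaction was -2.26 ± 0.31 (adjusted p = 0.00107) for Irf7, -1.15 ± 0.19 (adjusted p = 0.00198) for Irf1 and -1.12 ± 0.26 (adjusted p = 0.00899) for Irf9. For Stat2 it was -0.10 ± 0.26 (adjusted p = 0.741), called lower under the other 4 scalings.

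Among sensors and effectors of foreign nucleic acid, Zbp1 had the largest culture difference of the set at day 5. Zbp1 binds nucleic acids in the Z conformation and can start necroptosis. It was at 26.5 and 29.1 TPM in MGS and 0.257 and 0.0707 TPM in CV at day 5, and 11.5 and 12.2 TPM in MGS and 12.7 and 13.6 TPM in CV at day 32. Both CV day 5 libraries were near 0, MGS at day 5 was the highest group and the groups did not overlap. Its log2 fold change was 4.63 ± 0.16 (adjusted p = 1.19e-06) at day 5 and -0.14 ± 0.16 (adjusted p = 0.452) at day 32. There the other 4 scalings called it lower in MGS (-1.01 to -0.14 over all 5 scalings). Zbp1 fell with time in MGS (-1.17 ± 0.16 (adjusted p = 0.00155)), and its interaction was -4.77 ± 0.22 (adjusted p = 1.52e-05). No other gene of the set was called lower with time in MGS.

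Eif2ak2, the kinase PKR that halts translation when double-stranded RNA is present, was at 15.1 and 16.1 TPM in MGS and 15.1 and 21.9 TPM in CV at day 5, and 34.7 and 32.3 TPM in MGS and 15.8 and 22.2 TPM in CV at day 32. The cultures overlapped at day 5, and MGS at day 32 was above every other group. Its difference was -0.21 ± 0.22 (adjusted p = 0.461) at day 5 and 0.81 ± 0.22 (adjusted p = 0.0139) at day 32. The day 32 call was lost without MGS replicate 1 or 2 of day 32 and under 3 of the 5 scalings (0.08 to 0.81 over all 5). Its interaction (1.01 ± 0.31, adjusted p = 0.0251) was lost without MGS replicate 1 of day 5 (0.0848), MGS replicate 2 of day 5 (0.0662), CV replicate 2 of day 5 (0.079), MGS replicate 1 of day 32 (0.0874) or MGS replicate 2 of day 32 (0.0673) and under the other 4 scalings. Ddx58 and Ifih1 encode the cytosolic RNA sensors RIG-I and MDA5. Ddx58 was at 19.6 and 20.3 TPM in MGS and 11.3 and 12.8 TPM in CV at day 5, and 31.9 and 31.4 TPM in MGS and 18.9 and 34.8 TPM in CV at day 32, and CV at day 5 lay below the other groups. Its difference at day 5 (0.69 ± 0.26, adjusted p = 0.0599) was called without CV replicate 1 of day 32 (0.000755) or CV replicate 2 of day 32 (0.00078) and under the other 4 scalings. Ifih1 was at 6.05 and 7.29 TPM in MGS and 1.68 and 2.16 TPM in CV at day 5, and 13.4 and 12.5 TPM in MGS and 3.52 and 9.44 TPM in CV at day 32, and in CV at day 32 replicate 2 was far above replicate 1.

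The IFIT proteins bind foreign RNA ends and block their translation, and their 3 genes lie side by side on chromosome 19, with 7.0 kb between Ifit2 and Ifit3 and 51.9 kb between Ifit3 and Ifit1. Ifit1, with 2 ISRE matches, was at 10.96 and 14.97 TPM in MGS and 0.412 and 0.423 TPM in CV at day 5, and 56.8 and 53.05 TPM in MGS and 20.5 and 26.4 TPM in CV at day 32. It was near 0 in CV at day 5 and stepped up through MGS at day 5 and CV at day 32 to MGS at day 32, without overlap. Its difference was 3.28 ± 0.20 (adjusted p = 1.38e-05) at day 5 and 1.21 ± 0.20 (adjusted p = 0.00136) at day 32, and 0.59 to 1.21 across scalings at day 32. Ifit3, whose near-identical copy Ifit3b could share its reads, was at 22.3 and 27.9 TPM in MGS and 9.89 and 9.31 TPM in CV at day 5, and 131 and 122 TPM in MGS and 85.2 and 92.2 TPM in CV at day 32. Its groups stood in the same order as those of Ifit1. Its difference was 1.29 ± 0.14 (adjusted p = 0.000232) at day 5 and 0.51 ± 0.14 (adjusted p = 0.0137) at day 32, the latter lost without MGS replicate 1 of day 32 (0.0995) or MGS replicate 2 of day 32 (0.0561) and of either sign across scalings (-0.12 to 0.51).

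Ifit2 went the other way at day 5. It was at 10.4 and 11.03 TPM in MGS and 22.1 and 32.3 TPM in CV at day 5, and 33.2 and 31.8 TPM in MGS and 9.17 and 21.2 TPM in CV at day 32. CV at day 5 lay above MGS at day 5, and at day 32 MGS lay above CV, in which replicate 2 was far above replicate 1. Its difference was -1.24 ± 0.35 (adjusted p = 0.0216) at day 5, not called without MGS replicate 1 of day 5 (0.101), MGS replicate 2 of day 5 (0.0865) or CV replicate 2 of day 5 (0.137). At day 32 it was 1.16 ± 0.35 (adjusted p = 0.0205), lost without MGS replicate 1 of day 32 (0.0877) or MGS replicate 2 of day 32 (0.0772) and under median-of-ratios scaling and quantile normalization. The interaction of Ifit2 was 2.40 ± 0.49 (adjusted p = 0.00522) and was called under all 5 scalings. With time in MGS all 3 genes rose, Ifit1 by 2.02 ± 0.20 (adjusted p = 0.000417), Ifit3 by 2.29 ± 0.14 (adjusted p = 8.81e-05) and Ifit2 by 1.51 ± 0.35 (adjusted p = 0.0128), the last not called without MGS replicate 1 of day 5 (0.0782), MGS replicate 2 of day 5 (0.065), MGS replicate 1 of day 32 (0.0791) or MGS replicate 2 of day 32 (0.0737). In CV Ifit1 rose by 4.10 ± 0.20 (adjusted p = 6.2e-06) and Ifit3 by 3.08 ± 0.14 (adjusted p = 4.16e-06). Ifit2 had -0.89 ± 0.35 (adjusted p = 0.0651) in CV and was called lower there without CV day 32 replicate 2 (adjusted p = 0.000771).

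OAS proteins make the short oligoadenylates that activate RNase L, and Oas2, Oas3 and Oas1a are neighbours on chromosome 5. Oas1a, whose reads could be shared with its near-identical copy Oas1g, was at 8.51 and 9.97 TPM in MGS and 0.245 and 0 TPM in CV at day 5, and 10.4 and 10.6 TPM in MGS and 32.9 and 32.6 TPM in CV at day 32. CV at day 5 had almost none, and CV at day 32 was the highest group. Its log2 fold change was 3.19 ± 0.17 (adjusted p = 8.27e-06) at day 5 and -1.55 ± 0.17 (adjusted p = 0.000182) at day 32, and all 5 scalings gave the latter sign (-2.33 to -1.55). The interaction of Oas1a was -4.75 ± 0.24 (adjusted p = 1.93e-05). Oas3 was listed at 0 and 0.0226 TPM in MGS and at 0 in both CV libraries at day 5, and at 0.0886 and 0.228 TPM in MGS and 1.52 and 1.92 TPM in CV at day 32. Only the CV day 32 libraries passed 1 TPM, so Oas3 was tested at all only through the group in which it was high, and its differences are given as levels with no test. Oas2 was at 3.997 and 5.09 TPM in MGS and 0.0567 and 0 TPM in CV at day 5, and 5.23 and 5.55 TPM in MGS and 4.70 and 6.75 TPM in CV at day 32. MGS lay above CV at day 5, and the cultures overlapped at day 32 (-0.06 ± 0.19 (adjusted p = 0.797)). At day 32 the other 4 scalings called Oas2 lower in MGS (-1.07 to -0.06 over all 5 scalings).

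Oasl2 and Oasl1, related genes, lie 10994 bases apart on the same chromosome. Oasl2 was at 27.6 and 33.1 TPM in MGS and 0.746 and 0.670 TPM in CV at day 5, and 62.9 and 58.4 TPM in MGS and 31.2 and 44.6 TPM in CV at day 32. Only CV at day 5 was below 1 TPM, and MGS at day 32 was above every other group. Its difference was 4.19 ± 0.20 (adjusted p = 4.42e-06) at day 5 and 0.69 ± 0.20 (adjusted p = 0.0164) at day 32. The day 32 call was lost without MGS replicate 1 or 2 of day 32 and under the other 4 scalings (0.06 to 0.69 over all 5 scalings). Its interaction was -3.51 ± 0.28 (adjusted p = 0.000107). Oasl1 stayed at or below 2.47 TPM in every library and had its highest values in MGS at day 32.

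Of the GTPases of the response, Gbp2, Gbp3 and Gbp7 form a cluster on chromosome 3 (9968 bases between Gbp7 and Gbp3 and 47450 bases between Gbp3 and Gbp2). Guanylate-binding proteins coat and break the compartments of intracellular pathogens. Gbp2, also used as a marker of reactive astrocytes, was at 55.03 and 54.3 TPM in MGS and 3.34 and 4.21 TPM in CV at day 5, and 67.5 and 62.2 TPM in MGS and 14.97 and 20.5 TPM in CV at day 32. In MGS it was already high at day 5, and CV lay below it at both days. Its difference was 3.55 ± 0.18 (adjusted p = 6.52e-06) at day 5 and 1.83 ± 0.18 (adjusted p = 0.000103) at day 32, called under every scaling (1.22 to 1.83 at day 32). Gbp3 was at 25.7 and 28.1 TPM in MGS and 5.08 and 5.69 TPM in CV at day 5, and 43.1 and 41.3 TPM in MGS and 11.3 and 14.7 TPM in CV at day 32, in the same order of groups. At day 32 Gbp3 was higher in MGS by 1.63 ± 0.16 (adjusted p = 0.000118).

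Gbp7 was not called with time in CV, where Gbp2 and Gbp3 rose. It was at 8.02 and 8.49 TPM in MGS and 2.37 and 4.18 TPM in CV at day 5, and 15.2 and 15.6 TPM in MGS and 1.15 and 2.57 TPM in CV at day 32. MGS lay above CV at both days, and CV at day 32 was the lowest group, overlapping CV at day 5. The difference was 2.56 ± 0.29 at day 32 (adjusted p = 0.000205), the largest positive difference of the set there, and 1.58 to 2.56 across scalings. Its change with time in CV was -0.59 ± 0.29 (adjusted p = 0.117), called lower without CV day 32 replicate 2 (adjusted p = 0.0106). The interaction (1.41 ± 0.41, adjusted p = 0.0192) was lost without MGS replicate 1 of day 5 (0.0632), MGS replicate 2 of day 5 (0.0538), CV replicate 2 of day 5 (0.0642), MGS replicate 1 of day 32 (0.0582) or MGS replicate 2 of day 32 (0.0622), with median-of-ratios scaling (0.0655) and with the length and GC correction (0.92). Iigp1, an immunity-related GTPase, was at 5.71 and 7.35 TPM in MGS and 0.139 and 0.311 TPM in CV at day 5, and 18.6 and 16.9 TPM in MGS and 3.83 and 8.0 TPM in CV at day 32. It was higher in MGS at day 5 (2.61 ± 0.29, adjusted p = 0.00028) and at day 32 (1.51 ± 0.29, adjusted p = 0.00288). Mx1 and Mx2, dynamin-like antiviral GTPases, were low, with Mx1 between 0 and 3.10 TPM and Mx2 between 0.116 and 8.24 TPM. Both rose with time in MGS and in CV, and Mx1 rose by 1.41 ± 0.12 (adjusted p = 0.000258) in MGS.

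**Figure D4:**
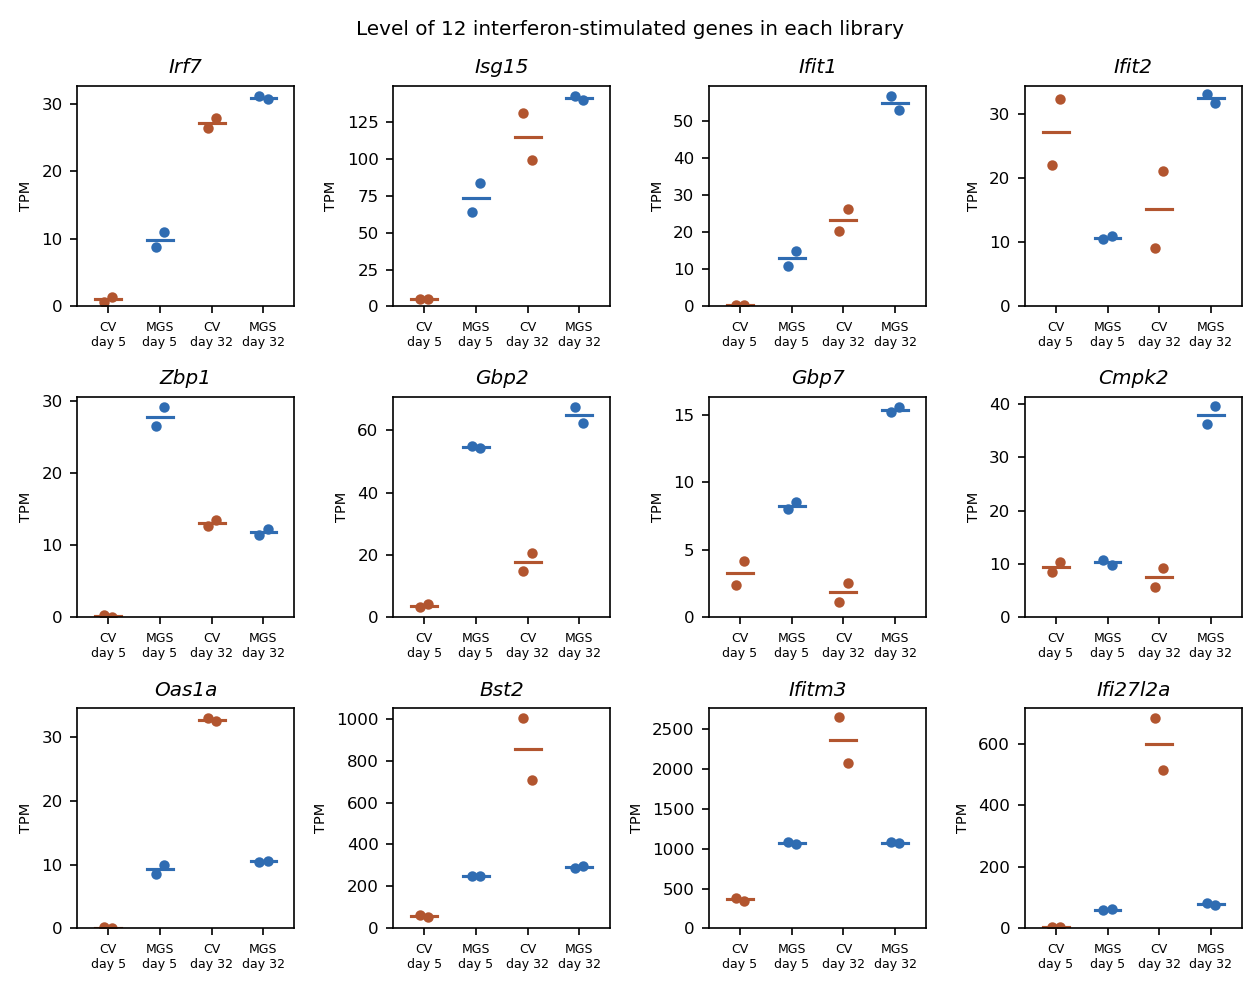
TPM of 12 of the genes (panels) in each library (points, with a line at the mean of 2), CV in brown and MGS in blue. Oas1a, Bst2, Ifitm3 and Ifi27l2a peak in CV at day 32, Zbp1 in MGS at day 5, and Ifit1, Gbp7 and Cmpk2 in MGS at day 32.

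Isg15, the ubiquitin-like protein that is attached to other proteins, was at 63.9 and 83.4 TPM in MGS and 4.65 and 5.16 TPM in CV at day 5, and 143 and 140.1 TPM in MGS and 131 and 99.05 TPM in CV at day 32. CV at day 5 lay far below the other groups, and the 2 cultures stood close at day 32. Its difference was 3.65 ± 0.18 (adjusted p = 5.52e-06) at day 5 and 0.31 ± 0.18 (adjusted p = 0.158) at day 32, where it was called without CV day 32 replicate 1 (adjusted p = 0.0254) and its sign depended on the scaling (-0.32 to 0.42). The interaction was -3.34 ± 0.25 (adjusted p = 8.81e-05). Isg15 rose by 4.28 ± 0.18 (adjusted p = 2.9e-06) in CV with time. In MGS it rose by 0.94 ± 0.18 (adjusted p = 0.00606), lost without MGS replicate 1 of day 5 (0.0593), MGS replicate 1 of day 32 (0.052) or MGS replicate 2 of day 32 (0.0502) and after median-of-ratios scaling (0.13). Usp18 removes Isg15 from proteins and dampens receptor signalling, and it was at 16.8 and 20.6 TPM in MGS and 2.18 and 2.28 TPM in CV at day 5, and 33.3 and 37 TPM in MGS and 25.9 and 28.1 TPM in CV at day 32. Its groups followed the order of Isg15. The difference was 2.60 ± 0.16 (adjusted p = 1.38e-05) at day 5 and 0.37 ± 0.16 (adjusted p = 0.0698) at day 32, called without CV day 32 replicate 2 (adjusted p = 0.0386) and of either sign across scalings (-0.25 to 0.37).

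Herc6 attaches Isg15 in the mouse. It was at 4.04 and 4.51 TPM in MGS and 4.22 and 5.74 TPM in CV at day 5, and 13.2 and 12.5 TPM in MGS and 4.93 and 7.34 TPM in CV at day 32. The cultures overlapped at day 5, and MGS at day 32 was above the other groups. Its difference was -0.17 ± 0.21 (adjusted p = 0.535) at day 5 and 0.98 ± 0.21 (adjusted p = 0.00539) at day 32, with 0.05 to 0.98 across scalings, 3 of which called it. The interaction (1.15 ± 0.30, adjusted p = 0.0143) was lost without MGS replicate 1 of day 5 (0.06), CV replicate 2 of day 5 (0.052) or MGS replicate 1 of day 32 (0.0577) and in 3 other scalings. Trim25, a ubiquitin ligase that acts on RIG-I, ranged from 7.33 to 28.1 TPM. Trim30a, another TRIM protein, was at 3.27 and 4.26 TPM in MGS and 0.969 and 1.26 TPM in CV at day 5, and 19.2 and 18.97 TPM in MGS and 15.3 and 29 TPM in CV at day 32. The days lay apart in each culture, and CV at day 32 spanned the MGS values. It rose by 2.09 ± 0.28 (adjusted p = 0.00163) with time in MGS.

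Parp9 and Dtx3l form a complex of an ADP-ribosyltransferase and a ubiquitin ligase. Their genes overlap by 558 bases on opposite strands of chromosome 16, so reads of that stretch could be counted for either. Parp9 ranged from 8.06 to 28.6 TPM and Dtx3l from 2.71 to 12.1 TPM. Parp14, an ADP-ribosyltransferase 55.1 kb from Dtx3l, was at 6.22 and 7.59 TPM in MGS and 1.20 and 1.29 TPM in CV at day 5, and 16.3 and 16.04 TPM in MGS and 8.32 and 12.4 TPM in CV at day 32. For all 3 genes CV at day 5 was lowest and separated, and all 3 were called higher in MGS at day 5.

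The membrane restriction factors were the most abundant genes of the set. Ifitm3, which blocks virus entry in endosomes, was at 1079 and 1054 TPM in MGS and 386 and 346 TPM in CV at day 5, and 1090.5 and 1067 TPM in MGS and 2654 and 2078 TPM in CV at day 32. It made up 41.1% to 61.8% of the summed TPM of the 40 genes. MGS held nearly one level at both days, and CV moved from below it to above it without overlap. Its difference was 1.54 ± 0.13 (adjusted p = 7.61e-05) at day 5 and -1.12 ± 0.13 (adjusted p = 0.000255) at day 32, and Ifitm3 rose by 2.68 ± 0.13 (adjusted p = 6.82e-06) in CV. Bst2, or tetherin, which holds budding virions at the cell surface, was at 248 and 251 TPM in MGS and 64.5 and 54.9 TPM in CV at day 5, and 286 and 299 TPM in MGS and 1004 and 709.7 TPM in CV at day 32. It was lowest in CV at day 5 and highest in CV at day 32. The difference was 2.05 ± 0.17 (adjusted p = 6.05e-05) at day 5 and -1.53 ± 0.17 (adjusted p = 0.000181) at day 32, with an interaction of -3.57 ± 0.24 (adjusted p = 5.21e-05). Both genes were called higher at day 5 and lower at day 32 under all 5 scalings.

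Rsad2 and Cmpk2 lie 12.8 kb apart on opposite strands of chromosome 12. Rsad2 is viperin, which makes a chain-terminating nucleotide, and Cmpk2 is a mitochondrial nucleotide kinase. Rsad2 was at 2.39 and 3.13 TPM in MGS and 0.512 and 0.700 TPM in CV at day 5, and 10.2 and 10.1 TPM in MGS and 2.48 and 4.56 TPM in CV at day 32. MGS lay above CV at both days, and CV at day 32 overlapped MGS at day 5. At day 32 its difference was 1.34 ± 0.23 (adjusted p = 0.00182), with 0.38 to 1.34 across scalings. Cmpk2 was at 10.7 and 9.89 TPM in MGS and 8.43 and 10.3 TPM in CV at day 5, and 36.1 and 39.6 TPM in MGS and 5.72 and 9.21 TPM in CV at day 32. Only MGS at day 32 stood apart, above every other group. Its difference was 0.13 ± 0.22 (adjusted p = 0.652) at day 5 and 2.23 ± 0.22 (adjusted p = 0.000111) at day 32, and 1.55 to 2.23 across scalings. Cmpk2 rose by 1.78 ± 0.22 (adjusted p = 0.00115) with time in MGS and had -0.32 ± 0.22 (adjusted p = 0.255) in CV, called lower there without CV day 32 replicate 2 (adjusted p = 0.00898). Its interaction was 2.1 ± 0.31 (adjusted p = 0.00146), against 2.40 ± 0.49 for Ifit2, the only other gene of the set whose interaction was called higher under all 5 scalings.

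Of the remaining genes, Ifi27l2a reached the widest range. Its product is a small membrane protein, and whether reads were shared with the related gene Ifi27l2b was not checked. Ifi27l2a was at 58.1 and 63.2 TPM in MGS and 5.51 and 3.16 TPM in CV at day 5, and 82.2 and 76.9 TPM in MGS and 682 and 516 TPM in CV at day 32. CV at day 5 was lowest and CV at day 32 highest, and no groups overlapped. Its difference was 3.57 ± 0.22 (adjusted p = 1.74e-05) at day 5 and -2.88 ± 0.22 (adjusted p = 3.25e-05) at day 32. It rose by 6.84 ± 0.22 (adjusted p = 1.06e-06) in CV with time, and its interaction (-6.45 ± 0.32 (adjusted p = 1.72e-05)) was the largest of the set.

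Rtp4, a receptor transporter protein, was at 16.9 and 23.1 TPM in MGS and 1.20 and 1.78 TPM in CV at day 5, and 37.9 and 32.3 TPM in MGS and 46.96 and 56.3 TPM in CV at day 32. It was higher in MGS at day 5 (3.07 ± 0.21, adjusted p = 2.59e-05). At day 32 the CV libraries lay above those of MGS without a call on the deposited scale (adjusted p = 0.0515). The other 4 scalings called Rtp4 lower in MGS there (-1.16 to -0.54 over all 5 scalings). Its interaction was -3.61 ± 0.30 (adjusted p = 0.000127). Ifi35 was at 39.8 and 40.5 TPM in MGS and 10.04 and 9.40 TPM in CV at day 5, and 46.04 and 43.1 TPM in MGS and 97.2 and 76.2 TPM in CV at day 32. Its order of groups was that of Bst2, with a difference of -0.93 ± 0.14 (adjusted p = 0.000998) at day 32 and an interaction of -2.88 ± 0.20 (adjusted p = 6.9e-05). Xaf1, a binding partner of the apoptosis inhibitor XIAP, was at 5.85 and 7.59 TPM in MGS and 0.915 and 0.919 TPM in CV at day 5, and 13.1 and 11.6 TPM in MGS and 17.1 and 18.9 TPM in CV at day 32. The day 32 libraries of CV lay above those of MGS. Its difference of -0.51 ± 0.17 (adjusted p = 0.032) at day 32 was lost without MGS replicate 1 of day 32 (0.0847), MGS replicate 2 of day 32 (0.184) or CV replicate 2 of day 32 (0.0537) and when only the compared groups were fitted (0.088). Ifi44 stayed between 0.0929 and 9.48 TPM and Samd9l, a restriction factor that halts translation, between 1.91 and 18.2 TPM. Both had CV at day 5 as the lowest group.

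Replicates differed by group. In CV at day 32 replicate 2 was above replicate 1 for 34 of the 40 genes, with a median difference of 0.41 on the log2 scale (all genes 0.32), most of all for Ifih1 (1.21). In MGS at day 5 replicate 2 was above replicate 1 for 35 of the 40 genes, with a median difference of 0.14 against 0.01 for all genes. In CV at day 5 it was above for 29, with a median of 0.14 against 0.12 for all genes, and in MGS at day 32 the median was -0.03 against 0.00 for all genes. For all 40 genes the summed level was 1985 and 2043 TPM in MGS and 625 and 608 TPM in CV at day 5, and 2648 and 2594 TPM in MGS and 5136 and 4237 TPM in CV at day 32. Without Ifitm3, Bst2 and Ifi27l2a the sums were 599.8 and 675 TPM in MGS and 169 and 204 TPM in CV at day 5, and 1189 and 1151 TPM in MGS and 796 and 934 TPM in CV at day 32. In TPM the larger sum at day 32 was that of CV with these 3 abundant genes and that of MGS without them. The size factors of median-of-ratios scaling at day 32 were 1.262 and 1.268 for MGS and 0.709 and 0.9358 for CV. Divided by them, the sums without the 3 genes were also larger in CV, so their order depended on the scaling.

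The macrophage markers moved with part of the set. Of the 18 markers 16 were called higher in MGS at day 5 and 0 lower, and at day 32 1 was called higher and 16 lower. All 18 rose with time in CV, and in MGS 9 rose and 2 fell. Bst2, Ifitm3, Ifi27l2a, Oas1a, Ifi35 and Xaf1 were called higher at day 5 and lower at day 32, as most of these markers were, and Gbp2, Gbp3, Gbp7, Iigp1, Ifit1 and Rsad2 were called higher at both days. Markers of meningeal fibroblasts (8 of 8) and of ependyma with choroid plexus (8 of 8) were called higher in MGS at both days. So were oligodendrocyte markers (8 of 8 at day 5 and 7 of 8 at day 32) and mural markers (4 and 5 of 5). Endothelial markers were called higher for 5 and 4 of 8, and lower for 1 and 0. Some of these markers, such as Opalin, Cldn5 and Mog, reached 1 TPM only in MGS libraries, so their calls follow in part from the filter. Of the 6 neuron markers tested 3 were called higher in MGS and 2 lower at day 5, and 3 higher and 1 lower at day 32. The 8 neuron markers listed summed to 57.6 and 62.0 TPM in MGS and 128 and 144 TPM in CV at day 5. The meningeal markers summed to 12024 and 13914 TPM in MGS and 377 and 353 TPM in CV at day 5, and to 13578 and 13566 TPM in MGS and 326 and 459 TPM in CV at day 32. Ptgds alone gave 6521 and 8262 TPM of the MGS sums at day 5 and 10535 and 10493 TPM at day 32. With time in MGS 1 of the 8 meningeal markers was called higher and 5 lower, against 35.0% and 7.53% of all genes. Of all genes 22.5% were called higher at day 5 and 52.8% at day 32. The part of any of these cells in either pattern was not tested. The 10 lymphocyte and plasmacytoid dendritic cell markers summed to at most 1.67 TPM in any library, and in CV at day 32 replicate 1 all 10 were at 0. Of the 10 astrocyte markers 6 were called higher in MGS and 1 lower at day 5, with 3 not called, and 9 were called higher and 1 lower at day 32.

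**Figure D5:**
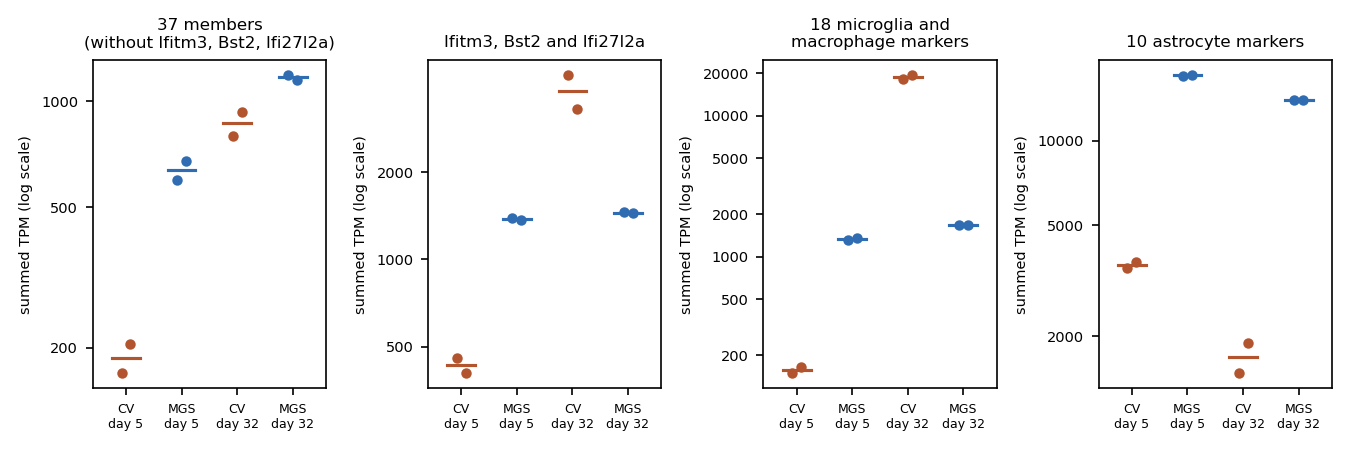
Summed TPM (log axis) of 37 of the genes, of Ifitm3, Bst2 and Ifi27l2a, of 18 microglia and macrophage markers and of 10 astrocyte markers in each library (points, with a line at the mean of 2). The sum of the 3 abundant genes and that of the macrophage markers are highest in CV at day 32. In TPM the other 37 genes sum highest in MGS at day 32, at 1189 and 1151 TPM. After median-of-ratios scaling, which is not drawn, they too sum highest in CV at day 32.

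The pathway above these genes was described from a list of 49 genes outside the set, of which 37 could be tested. The 11 interferon genes on it stayed at or below 0.36 TPM in every library, so none was tested. Ifnb1, interferon beta, was listed at 0.0920 TPM in MGS day 5 replicate 1, at 0.112 TPM in CV day 32 replicate 1 and at 0 in the other 6 libraries. Of the 37 tested genes 16 (43.2%) were called higher in MGS and 1 (2.7%) lower at day 5, where 22.5% and 26.4% of all genes were. At day 32 15 (40.5%) were higher and 11 (29.7%) lower on the deposited scale, where 52.8% and 14.8% of all genes were. Of the 6 receptor genes 3 were called higher at day 5, and at day 32 2 were called higher and 3 lower.

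The receptor subunit Ifnar2 was at 67.1 and 67.8 TPM in MGS and 38.3 and 35.4 TPM in CV at day 5, and 52.2 and 57.9 TPM in MGS and 75.5 and 85.6 TPM in CV at day 32. It was higher in MGS at day 5 (0.86 ± 0.12, adjusted p = 0.000819) and lower at day 32 (-0.54 ± 0.12 (adjusted p = 0.00501)), the latter lost without MGS replicate 1 of day 32 (0.0509). Ifnar1, the other subunit, had 0.27 ± 0.18 (adjusted p = 0.242) at day 5, called under each of the other 4 scalings and without CV day 32 replicate 1 or 2 (adjusted p = 0.0385 and 0.0384). At day 32 it had 0.63 ± 0.18 (adjusted p = 0.0156), lost without MGS replicate 1 of day 32 (0.0706) or MGS replicate 2 of day 32 (0.0825) and under the other 4 scalings, among which the length and GC correction gave the other sign (-0.07).

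The kinases Jak1 and Tyk2 had 0.07 ± 0.27 (adjusted p = 0.835) and 0.26 ± 0.24 (adjusted p = 0.395) at day 5, and median-of-ratios scaling and quantile normalization called Tyk2 (0.0323 and 0.0322). At day 32 they had 0.86 ± 0.27 (adjusted p = 0.0239) and 0.66 ± 0.24 (adjusted p = 0.0387). Jak1 was not called there without MGS replicate 1 of day 32 (0.0897), MGS replicate 2 of day 32 (0.0912) or CV replicate 1 of day 32 (0.0586), and Tyk2 not without MGS replicate 1 of day 5 (0.071), MGS replicate 2 of day 5 (0.071), CV replicate 1 of day 5 (0.0582), CV replicate 2 of day 5 (0.0582), MGS replicate 1 of day 32 (0.111), MGS replicate 2 of day 32 (0.163) or CV replicate 1 of day 32 (0.0737), and neither was called with median-of-ratios scaling (0.231 and 0.643) or FPKM (0.0674 and 0.152), or with only the compared groups fitted (0.0589 and 0.117). Tyk2 was also not called without a filter (0.051). Jak1 had the other sign after the length and GC correction (-0.11, not called), and Tyk2 had it after quantile normalization (-0.175, not called) and after the length and GC correction, which called it lower in MGS (-0.31, adjusted p = 0.0464).

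Socs3, which shuts down JAK and STAT signalling, had 3.44 ± 0.14 (adjusted p = 2.31e-06) at day 5 and 1.73 ± 0.14 (adjusted p = 3.7e-05) at day 32. Tmem173, the adaptor STING of DNA sensing, had 2.48 ± 0.16 (adjusted p = 2.05e-05) at day 5, Ikbke, a kinase that activates Irf3, 2.00 ± 0.19 (adjusted p = 0.000146), and Dhx58, the RNA sensor LGP2, 1.99 ± 0.15 (adjusted p = 3.9e-05). On the deposited scale at day 32 Tmem173 was lower in MGS (-0.83 ± 0.16 (adjusted p = 0.003)) and Ikbke higher (0.74 ± 0.19, adjusted p = 0.0113). Dhx58 was not called there (-0.15 ± 0.15 (adjusted p = 0.394)). Irf8, an interferon regulatory factor that macrophages express, was at 4.50 and 5.19 TPM in MGS and 0.766 and 0.616 TPM in CV at day 5, and 5.56 and 5.59 TPM in MGS and 51.7 and 64.1 TPM in CV at day 32. In CV at day 32 its values stood far above the other groups. Irf8 had 1.79 ± 0.17 (adjusted p = 0.000125) at day 5 and -3.15 ± 0.17 (adjusted p = 5.76e-06) at day 32. Irf5, another such factor, had 1.54 ± 0.19 (adjusted p = 0.000533) at day 5 and -3.37 ± 0.19 (adjusted p = 7.84e-06) at day 32. Ptpn6, a phosphatase of blood cells, had 2.65 ± 0.15 (adjusted p = 1.19e-05) at day 5 and -2.34 ± 0.15 (adjusted p = 1.45e-05) at day 32. Tlr7, an endosomal RNA receptor, was lower in MGS at day 32 (-1.99 ± 0.32 (adjusted p = 0.0013)), and Jak2, a kinase of the interferon gamma receptor, higher (1.12 ± 0.22, adjusted p = 0.00325). Neither Tlr7 nor Jak2 was called at day 5. Samhd1, which depletes nucleotides and was the 1 gene of the list called lower at day 5, was at 16.8 and 17.8 TPM in MGS and 50.3 and 62.4 TPM in CV at day 5, and 33.6 and 31.9 TPM in MGS and 45.4 and 61.95 TPM in CV at day 32.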

How the data were processed

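RNA was extracted with TRIzol and made into strand-marking libraries with an NEB Ultra II directional kit, per the labels' protocols. Per the submitters' processing notes the tools were bcl2fastq, HISAT2 2.1.0 and StringTie 1.3.4d, and the builds named are hg38 and mm10, with no role for either. Annotation release and strand setting: not given in the sources used here. The authors deposited TPM and FPKM values per gene and library, per the file headers, with the mean coverage per base, from which aligned gigabases were computed as the only measure of depth. Read counts were not used here.

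Rows of 1 gene ID were summed. Genes with at least 1 TPM in at least 2 of 8 libraries were fitted on log2(TPM + 1) with limma 3.58.1 (R 4.3.3), 1 mean per group over all 8 libraries, with empirical Bayes moderation (4 residual degrees of freedom, median prior 3.3) and Benjamini-Hochberg adjustment over all genes tested. A call is an adjusted p under 0.05. An exact test of 2 libraries against 2 could not go below p = 0.333. The procedure was also run on simulated data in which every group had the same spread and few genes were changed. The data here differ in both respects, so that run does not vouch for the calls. Tables and figures used Python 3.11.15, pandas 2.3.3, numpy 2.4.6 and matplotlib 3.10.9. Alternatives were a pseudocount of 0.1, no filter, a filter of 5 TPM, median-of-ratios scaling, quantile normalization, FPKM, a length and GC correction, the series table, only the compared groups, a replicate block and each library left out. The 5 scalings are TPM, median-of-ratios, quantile, FPKM and the length and GC correction.

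The gene set and the marker and pathway lists were chosen with earlier results of these data known. Genes described with full statistics were the 10 called genes with the largest difference per culture comparison, those called against the majority, 4 transcription factors, up to 8 by interaction, 6 fixed pathway genes (1 of them is not reported here) and up to 6 called pathway genes per comparison. Ddx58, Eif2ak2, Herc6, Ifit3, Trim30a, Mx1, the time changes and other genes given with a fold change were chosen after their values were seen.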

Additional observations from a re-analysis of the deposited data

Results flagged for a closer look

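For 29 of the 40 genes the culture difference itself differed between the days in the interaction test (limma, Benjamini-Hochberg adjusted p under 0.05 over all genes). Each value below is the log2 fold change of MGS against CV at day 32 minus that at day 5. It was lower at day 32 for Ifi27l2a (-6.45), Zbp1 (-4.77), Oas1a (-4.75), Rtp4 (-3.61), Bst2 (-3.57), Oasl2 (-3.51), Isg15 (-3.34), Ifi35 (-2.88), Ifitm3 (-2.66), Xaf1 (-2.51), Oas2 (-2.48), Irf7 (-2.26), Usp18 (-2.23), Ifit1 (-2.08), Gbp2 (-1.72) and Trim30a (-1.30). Smaller differences in the same direction belonged to Oas3 (-1.25), which passed the filter on low values only through CV at day 32, Parp14 (-1.19), Irf1 (-1.15), Irf9 (-1.12), Iigp1 (-1.11), Ifi44 (-1.10), Mx2 (-0.92) and Ifit3 (-0.79). It was higher at day 32 for Eif2ak2 (1.01), Herc6 (1.15), Gbp7 (1.41), Cmpk2 (2.1) and Ifit2 (2.40). Of all genes tested 12.3% were called lower and 49.7% higher in this test. Groups of 2 libraries are too small to be checked for a library that stands apart.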

How the results depend on the processing

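Most values for single genes kept their direction and call, and the cause of those that did not was not tested. At day 5 the count of genes called lower was 2 after quantile normalization (32.6% of all genes). At day 32 the counts were 9 higher and 12 lower after median-of-ratios scaling, 8 and 13 after quantile normalization, and 13 and 18 after the length and GC correction. With time in MGS the lower count was 2 with FPKM, with only the compared groups, with median-of-ratios scaling and with the length and GC correction, and 3 after quantile normalization. Of all genes 15.4% (FPKM), 22.7% (median-of-ratios), 25.9% (length and GC) and 25.9% (quantile) were called lower there. With time in CV it was 1 after the length and GC correction (36.2% of all genes). The higher interaction count was 2, 3 and 2 after median-of-ratios scaling, quantile normalization and the length and GC correction (28.7%, 31.4% and 32.1% of all genes).

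The median of the genes minus that of all genes was 2.20 (pseudocount 0.1), 2.00 (filter of 5 TPM), 1.55 (quantile) and 1.35 (FPKM) at day 5, against 1.77 as reported. At day 32 it was 0.21 without a filter. It was 3.39 (pseudocount 0.1), 2.65 (filter of 5 TPM) and 1.89 (FPKM) with time in CV, and -2.52 (pseudocount 0.1), -1.32 (FPKM) and -2.05 (length and GC) for the interaction.

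With each library left out, counts of higher and lower calls ran from 26 to 35 and 0 to 1 at day 5, 10 to 26 and 5 to 8 at day 32, 11 to 31 and 1 to 2 with time in MGS, 32 to 35 and 0 to 3 with time in CV, and 2 to 5 and 20 to 29 for the interaction. The medians relative to all genes ran from 1.71 to 1.88, -0.09 to 0.10, 0.39 to 0.62, 2.32 to 2.55 and -1.90 to -1.65 in the same order. With 1 library left in a group, that library is assumed to vary like the others.

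Some log2 fold changes took the other sign. At day 5 these were Eif2ak2 (0.0319) and Herc6 (0.194) after the length and GC correction, and, over the libraries left out, Eif2ak2 (-0.463 to 0.0475), Herc6 (-0.355 to 0.0131), Jak1 (-0.156 to 0.305) and Cmpk2 (-0.0028 to 0.26), the first 2 without CV day 5 replicate 2 and the others without replicate 1. At day 32 they were Irf7 (-0.436), Irf9 (-0.476), Isg15 (-0.322), Usp18 (-0.247) and Ifit3 (-0.124) after median-of-ratios scaling, and Irf7 (-0.408), Irf9 (-0.25), Tyk2 (-0.175) and Usp18 (-0.185) after quantile normalization. With FPKM they were Irf7 (-0.19), Irf9 (-0.23), Isg15 (-0.0766) and Usp18 (-0.00809). After the length and GC correction they were Irf7 (-0.405), Irf9 (-0.547), Stat2 (-0.184), Ifnar1 (-0.0745), Jak1 (-0.111) and Tyk2 (-0.307). Over the libraries left out Irf9 ran from -0.112 (CV day 32 replicate 1) to 0.405, and Oas2 from -0.28 to 0.165 (CV day 32 replicate 2). With time in CV Gbp7 had 0.00804 after the length and GC correction, and Cmpk2 had 0.0334 and 0.0387 after median-of-ratios scaling and quantile normalization. The interaction of Stat2 ran from -0.341 to 0.131 (without CV day 32 replicate 2) and was 0.0134 without CV day 5 replicate 1.

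The replicate numbers are shared between groups, but the labels do not say that they mark a common litter or batch, and the correlation of deviations between same-numbered libraries ran from -0.131 to 0.444. With the replicate number as a block, the count of genes called lower with time in CV was 1 (Ifit2, adjusted p = 0.0269 by limma), Ddx58 was called at day 5 (adjusted p = 0.034), and the other 114 values checked kept their direction and call. Under the filter of 5 TPM genes below it gave no value. Depth is known only as aligned bases, lowest in CV day 32 replicate 2 (2.15 gigabases), and no counting error can be given for genes near 0 such as Oas3 and Mx1.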
